A study of Homo sapiens and Mus musculus with 21 samples.

Results

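The 28 genes described here code for proteins of the small subunit of the cytosolic ribosome and were taken as a named list: RPSA, RPS2, RPS3, RPS3A, RPS4X, RPS6, RPS7, RPS9, RPS10, RPS12, RPS13, RPS14, RPS15, RPS15A, RPS16, RPS18, RPS19, RPS20, RPS21, RPS23, RPS24, RPS25, RPS26, RPS27, RPS27A, RPS28, RPS29 and FAU. The list was made by function and not by any measured value. Read counts could be named for 10 of the 28 genes, among 58381 genes in the input table. These 10 are RPS3, RPS4X, RPS6, RPS13, RPS15, RPS16, RPS20, RPS21, RPS23 and FAU. The other 18 have no count given here, because the count tables carry Ensembl identifiers that only the authors' class tables pair with a name. Positions of methylation were looked up by gene coordinates and so cover more of the list.

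The study used HEK293T, a transformed human embryonic kidney line, either wild type (WT) or with PCIF1 knocked out (KO). PCIF1 is the methyltransferase that makes m6Am, an N6-methylated and 2'-O-methylated adenosine at the first transcribed base beside the cap. The groups used here were 2 WT and 3 KO libraries of polyadenylated input RNA, 2 WT and 3 KO libraries of ribosome-protected fragments, and 1 WT and 2 KO miCLIP libraries, with no treatment named for any of them. In miCLIP an antibody against N6-methyladenosine is crosslinked to RNA, and the crosslink leaves substitutions in the reads near the methylated base. The labels name several knockout cell lines for the study as a whole, but not which library came from which line, nor whether replicates were separate cultures. Each p below thus rests on how much these libraries vary, and that variation could be technical alone. The 6 SLAM-seq libraries and the 2 mouse fibroblast miCLIP libraries were not used for these genes, and 0 of the 28 genes were in the SLAM-seq table.

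The small subunit binds the mRNA, scans to the start codon and holds the decoding centre, where codon and tRNA are matched. Nearly all mRNAs for ribosomal proteins are TOP mRNAs: they begin with a C at the cap followed by a run of pyrimidines (C or T in the gene). Through this run mTOR and the cap-binding protein LARP1 switch their translation on and off together. A transcript that begins with C has no adenosine beside the cap to carry m6Am, so the annotated start of each gene bears on what the m6Am data can show.

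The starts of the 9 genes that have both counts and a RefSeq promoter entry are shown first, since the levels below are given for them. RPS14 follows as a gene with a putative m6Am region but no named count, and RPS28 as one that begins with A and has no counted region. Each line runs 5′ to 3′ on the transcript strand, from 10 bases before the annotated start to 20 bases from it, so that the 11th letter is the annotated first base. Capitals mark the run of C or T that holds the annotated first base or, where that base is A (RPS4X and RPS28), the longest run of the window. Sequences are RefSeq's, GRCh38.p14.
RPS3: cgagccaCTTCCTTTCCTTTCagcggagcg
RPS4X: ctccagccccaaTTTCTacgcgcaccggaa
RPS6: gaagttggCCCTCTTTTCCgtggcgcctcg
RPS13: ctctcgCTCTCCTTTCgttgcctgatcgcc
RPS15: aggcgcggaCCaaagcgatctcttctgagg
RPS16: ccctagCTTTCCTTTTCCggttgcggcgcc
RPS21: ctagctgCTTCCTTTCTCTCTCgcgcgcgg
RPS23: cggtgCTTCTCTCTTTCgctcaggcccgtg
FAU: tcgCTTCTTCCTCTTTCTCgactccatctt
RPS14: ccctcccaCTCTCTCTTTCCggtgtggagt
RPS28: gaagcacgtgaCTCCTCTCCgccagaccgc

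These windows lie at chr11:75399508-75399537 (RPS3, plus strand), chrX:72277229-72277258 (RPS4X, minus), chr9:19380217-19380246 (RPS6, minus), chr11:17077648-17077677 (RPS13, minus), chr19:1438386-1438415 (RPS15, plus) and chr19:39435930-39435959 (RPS16, minus). The others are chr20:62387093-62387122 (RPS21, plus), chr5:82278335-82278364 (RPS23, minus), chr11:65122115-65122144 (FAU, minus), chr5:150449720-150449749 (RPS14, minus) and chr19:8321486-8321515 (RPS28, plus). Each holds the end of the promoter and the first bases of the first exon.

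A promoter entry was found for 25 of the 28 genes. The annotated first base was C in 20 of them (80%), A in 3 (12%; RPS4X, RPS27A and RPS28), G in 1 (RPS26) and T in 1 (RPS29). Over 13820 protein-coding genes, C was the annotated first base in 11.3% and A in 50.9%. A C at the start followed by at least 4 bases that were each C or T, read on the transcript strand only, was found in 18 of 25 small-subunit genes (72%), in 4.57% of all protein-coding genes and in 69.4% of 36 genes for large-subunit proteins. The run counted from the annotated start was 12 bases in RPS21, 11 in RPS3, 9 in RPS6 and FAU, 8 in RPS16, 7 in RPS23 and 6 in RPS13. RPS4X and RPS15 are the exceptions among the 9: RPS4X begins with A, and in RPS15 the C at the start is followed directly by A.

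The authors' list of m6Am regions, which its name calls putative, held 2360 regions with 1 score each, in 1 list for the whole study. An m6Am region below means a putative one from this list. Neither the scale of the score nor the libraries behind it are stated. The strand is known here for 26 of the 28 genes, and 12 of these 26 had a region on their own strand within 50 nt of the gene start (46.2%, exact 95% interval 26.6 to 66.6%). The same held for 9.4% of 15844 protein-coding genes, for 12 of 38 large-subunit genes (31.6%, interval 17.5 to 48.7%) and for 4 of 13 other TOP mRNAs (30.8%, interval 9.09 to 61.4%). The intervals of the small-subunit and large-subunit shares overlap. They cover counting error only. Listed m6A positions of these genes also had more reads than those of all genes, a median of 160 against 30 in WT, and the part of depth in these shares was not tested.

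RPS13, a protein of the body of the subunit, had the highest score of the 12, 4.24 (place 120 of the 2360), at chr11:17077701-17077750, which ends 34 nt upstream of the annotated start. FAU, which codes for a ubiquitin-like protein joined to the ribosomal protein eS30, had 4.10 (place 165) at chr11:65122101-65122200, over its start. RPS4X, the X-linked copy of the RPS4 gene, had 3.93 (place 240) at chrX:72277151-72277350, also over its start. RPS15, a protein of the head of the subunit, followed with 3.41 at chr19:1438351-1438500, over its start. The lowest score was that of RPS3A, 2.22 (place 2233), 28 nt upstream of its start.

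Between these lay RPS10 at 3.28, RPS14 at 3.20 and RPS3 at 3.10, and then RPS21 at 2.60, RPS24 at 2.58, RPS19 at 2.53 and RPS6 at 2.49. The median score of the 12 was 3.15, against 2.90 over the whole list. In 7 of the 12 genes the region covered the annotated start (FAU, RPS4X, RPS15, RPS10, RPS14, RPS21 and RPS19). In the other 5 (RPS13, RPS3, RPS24, RPS6 and RPS3A) it was 50 nt wide and lay wholly upstream, 13 to 34 nt away.

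**Figure D1:**
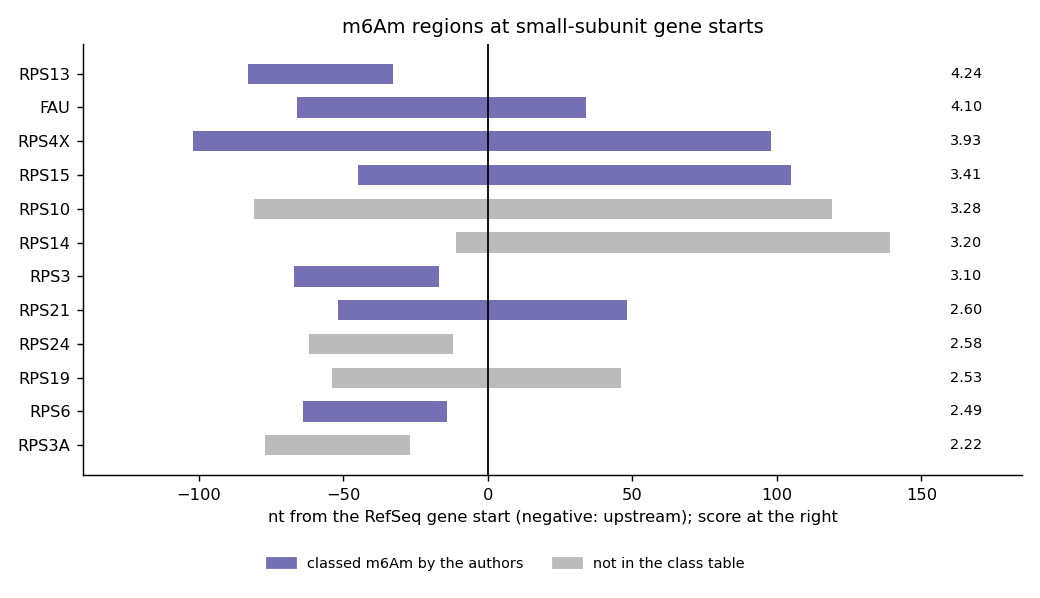
The 12 putative m6Am regions at small-subunit gene starts, as bars over the distance in nt from the RefSeq gene start (negative is upstream). They are in order of the authors' score, which stands at the right. Bars for 7 genes cross the start and 5 lie upstream of it; colour marks the 7 genes whose start the authors classed as m6Am and the 5 that are not in the class table.

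A region near another 4 genes of the list was not counted. A region with a score of 4.00 covers the higher end of RPS15A, whose strand is not known here. RPS28 and RPS25 have a region nearby on the opposite strand, 96 and 408 nt from the start. For RPS29 the region on its strand lies 12260 nt from the RefSeq start. FAU has, beside the region counted, a second one on the opposite strand 167 nt away, with a score of 3.62.

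The annotated first base of the region genes was C in 11 of 12, with RPS4X (A) the exception, and 10 of these 12 had C followed by at least 4 C or T. Among the 13 small-subunit genes with a promoter entry and no counted region, 8 had it. Over all 1450 protein-coding genes that have both a region and a promoter entry, the annotated first base was A in 58.6% and C in 10.8%.

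The authors' deposited table of translational efficiency also gives each gene 1 class of transcript start. Of its 765 genes, 416 (54.4%) are classed m6Am, 201 are A, and 148 (19.3%) are C, G or T. All 10 small-subunit genes fell in the adenosine classes: 7 were m6Am (RPS3, RPS4X, RPS6, RPS13, RPS15, RPS21 and FAU), 3 were A (RPS16, RPS20 and RPS23) and 0 were C, G or T. All 7 genes of the m6Am class had a region within 50 nt and 0 of the 3 of the A class did; how far the class was made from the same regions is not stated. RefSeq's first base was C in 8 of the 9 classed genes with a promoter entry, namely 6 of 7 m6Am genes and both A genes. Which transcript start lies behind each class is not given in the sources used here, so the class and RefSeq's base are set side by side only.

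Input libraries held 4511687 to 5960674 counts, and 3 counts corresponded to 0.503 to 0.665 CPM (counts scaled to a common library size). The fragment table lists only 785 genes, none with fewer than 10 counts in either WT library. In KO replicates 1, 2 and 3 the lowest counts are 8, 3 and 3. Its columns sum to 17665 counts in WT replicate 1 and to 46193 to 124580 in the other 4 libraries. All 10 genes with named counts are in this list, and whether any of the other 18 are is not known here. On the first principal component of the input (41.7% of the variance) WT replicate 1 stood at -40.2 and the other 4 libraries at 2.22 to 16.3. Results on input are therefore given with each WT library apart. The level of PCIF1 itself, which would check the labels, was not analysed here, since its row could not be named. Of 9 marker genes of HEK293T, 6 to 8 had an m6A position in each miCLIP library, and of the fibroblast, blood, endothelial, hepatocyte and squamous lists at most 1 gene had one.

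Input RNA of the 10 genes was slightly higher in KO than in WT when both WT libraries were used, with no gene past the test. The log2 fold change was above 0 in 10 of 10 genes, from 0.04 (RPS3) to 0.25 (RPS6), with a median of 0.15; over 14629 genes tested it was above 0 in 47.0%, with a median of -0.02. By edgeR's quasi-likelihood test with Benjamini-Hochberg adjustment 0 of the 10 genes were called at 0.05, where 0.0342% of all genes were called (5, all lower in KO). Without adjustment, p was under 0.05 for 1 of the 10 genes and for 1360 of all genes. In bulk RNA, fewer cells making a transcript and less of it per cell cannot be told apart.

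RPS6 is the subunit's best known phosphoprotein, a target of the S6 kinases downstream of mTOR. Its input level was 367.1 and 482.6 CPM in the 2 WT libraries and 524.5, 474.4 and 517.2 CPM in the 3 KO libraries. WT replicate 1 was low and WT replicate 2 lay within the KO range. Its log2 fold change was 0.25 ± 0.11 (SE; edgeR adjusted p = 0.531).

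RPS4X stood at 381.2 and 455.3 CPM in WT and at 488.6, 462.6 and 472.6 CPM in KO. All 3 KO libraries were above both WT libraries, WT replicate 2 by little. The log2 fold change was 0.18 ± 0.093 (SE; edgeR adjusted p = 0.563).

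RPS15 stood at 115.7 and 122.1 CPM in WT and at 126.3, 134.3 and 151.4 CPM in KO. For RPS13 the levels were 132.5 and 147.9 CPM in WT and 154.9, 150.8 and 160.4 CPM in KO. These genes and RPS4X were the 3 of 10 whose KO libraries all lay above both WT libraries, as held for 10.7% of all genes tested. Their log2 fold changes were 0.21 ± 0.11 for RPS15 (SE; edgeR adjusted p = 0.583) and 0.15 ± 0.10 for RPS13 (SE; edgeR adjusted p = 0.660).

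RPS20, a protein of the head of the subunit, gave the widest gap between the WT libraries. It stood at 68.8 CPM in WT replicate 1 and 121.7 CPM in WT replicate 2, and at 100.2, 106.3 and 112.8 CPM in KO. The KO libraries lay between the WT libraries, and the log2 fold change was 0.16 ± 0.19 (SE; edgeR adjusted p = 0.823).

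RPS21 stood at 160.6 and 205.3 CPM in WT and at 197.7, 204.5 and 227.1 CPM in KO. RPS23, which lines the decoding centre, stood at 136.5 and 130.4 CPM in WT and 153.0, 136.0 and 154.8 CPM in KO. In RPS21 WT replicate 2 lay within the KO range, and in RPS23 WT replicate 1 lay just above KO replicate 2, so the groups overlapped in both.

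RPS3, which lies at the entry of the mRNA channel, stood at 713.9 and 708.2 CPM in WT and 695.6, 689.6 and 815.4 CPM in KO. RPS16 was at 462.3 and 536.9 CPM in WT and 484.9, 503.1 and 584.5 CPM in KO. For FAU the levels were 229.9 and 274.0 CPM in WT and 257.3, 255.8 and 309.8 CPM in KO. In all 3 genes KO replicate 3 was the highest library and the other KO libraries lay within or below the WT range, and their log2 fold changes were 0.04 ± 0.090 (RPS3), 0.07 ± 0.10 (RPS16) and 0.12 ± 0.11 (FAU; all SE).

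**Figure D2:**
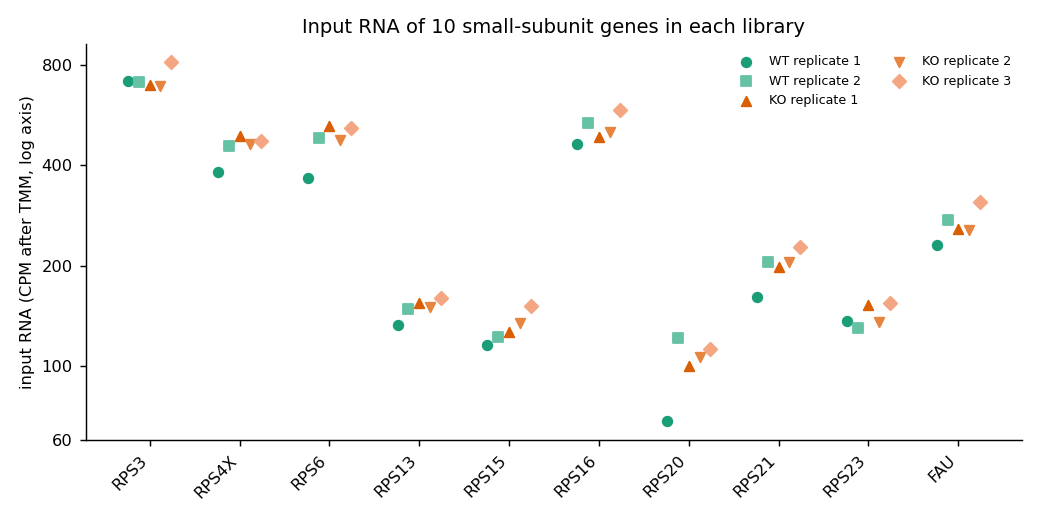
Input RNA of the 10 small-subunit genes with named counts, in CPM after TMM scaling on a log axis, 1 point per library. WT replicate 1 is the lowest library in 8 of 10 genes, all but RPS3 and RPS23.

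Between the 2 WT libraries the same genes also differed. WT replicate 1 was below WT replicate 2 in 8 of 10 genes, by a median of -0.23 on the log2 scale (from -0.82 in RPS20 to 0.07 in RPS23). Over all 14629 genes the median of this difference was 0.00, and 10% of genes lay below -0.50 and 10% above 0.56. This gap is a description of 2 libraries and has no test.

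Against WT replicate 1 alone the fold change was above 0 in 10 of 10 genes (51.6% of all genes), its median was 0.28 on the log2 scale, and 4 genes were called. The lone WT library is here assumed to vary like the KO libraries. In this fit 12.4% of 15386 genes were called, 5.3% being higher in KO. RPS6 rose by 0.49 ± 0.096 (log2, SE; edgeR adjusted p = 2.52e-05), RPS20 by 0.66 ± 0.15 (edgeR adjusted p = 0.000273), RPS21 by 0.41 ± 0.11 (edgeR adjusted p = 0.00424) and RPS4X by 0.35 ± 0.096 (edgeR adjusted p = 0.00526).

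FAU came next by p in that fit, with 0.28 ± 0.10 (edgeR adjusted p = 0.0544). RPS15 (0.27), RPS13 (0.26), RPS16 (0.21), RPS23 (0.15) and RPS3 (0.07) gave log2 fold changes above 0 that did not pass. The 4 called genes are those with the largest gaps between the WT libraries, which share WT replicate 1 with this fit: -0.82 in RPS20, -0.39 in RPS6, -0.35 in RPS21 and -0.26 in RPS4X.

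Against WT replicate 2 alone 0 of the 10 genes were called, where 0.35% of 15161 genes were (53; 0.0528% higher in KO) and 978 had an unadjusted edgeR p under 0.05, none of the 10 among them. The log2 fold change was above 0 in 7 of 10 genes, as in 51.8% of all genes, and its median was 0.05. RPS23 gave 0.18 ± 0.12 and RPS15 0.17 ± 0.13, the largest. RPS20 gave -0.20 ± 0.13, RPS16 -0.04 ± 0.095 and FAU -0.001 ± 0.10 (all SE). RPS6, called at 0.49 against WT replicate 1, stood at 0.07 ± 0.097 against WT replicate 2, and RPS20 changed from 0.66 to -0.20. Both fits share the KO libraries.

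**Figure D3:**
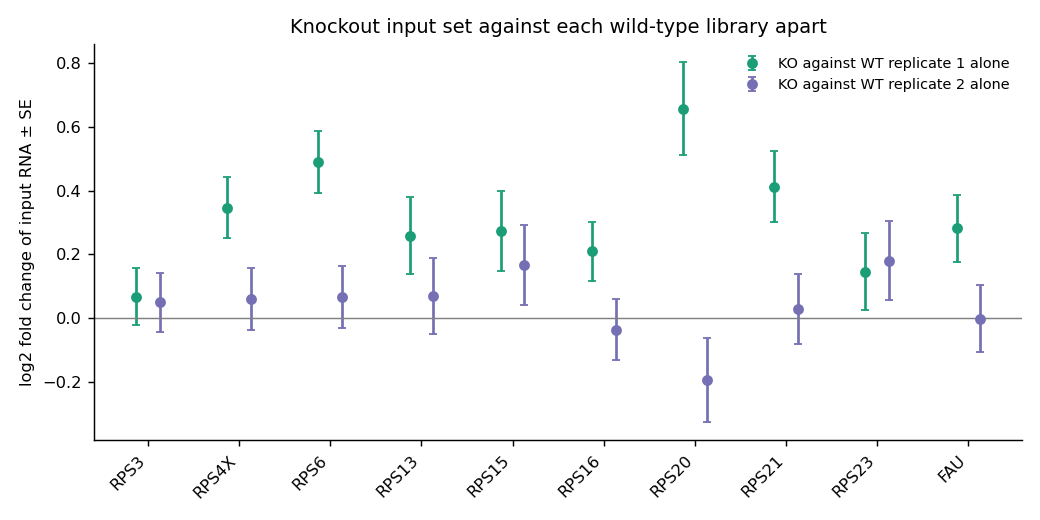
Log2 fold change of input RNA, KO over WT, with its SE from edgeR, with WT replicate 1 alone or WT replicate 2 alone as the control. Against replicate 1 all 10 values are above 0, up to 0.66 in RPS20; against replicate 2 they run from -0.20 to 0.18.

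Large-subunit genes showed the same dependence on the WT library. Of 22 with named counts, 20 were above 0 in the fit with both WT libraries (median 0.11, 0 called), 9 were called higher against WT replicate 1 alone (median 0.26) and 0 against WT replicate 2 alone (median 0.03). Of 7 other TOP mRNAs 6 were above 0 (median 0.04) in the fit with both, of 13 factors that bind the small subunit in initiation 7 (median 0.01), of 3 assembly factors of the subunit 1 (median -0.23) and of 3 regulators of TOP mRNAs 0 (median -0.10). In each of these lists 0 genes were called with both WT libraries. Against WT replicate 1 alone, 2 other TOP mRNAs were called higher and 1 lower, 2 initiation factors higher, 1 assembly factor lower and 2 regulators lower, and against WT replicate 2 alone 0 in each list.

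Ribosome-protected fragments are the stretches of mRNA that ribosomes shield from nuclease, and their count follows both the amount of an mRNA and how densely it is translated. No gene among the 785 was called between KO and WT by edgeR (0.0%), 30 had an unadjusted p under 0.05, and DESeq2 called 0. The log2 fold change was above 0 in 8 of the 10 small-subunit genes, as in 50.1% of all listed genes, with a median of 0.26 against 0.00 over the whole list. The 10 genes together had 244 counts in WT replicate 1 and 946 in WT replicate 2, against 2103, 667 and 1050 in KO, so that single genes rest on 11 to 47 counts in WT replicate 1. The lowest of these, 11 in RPS23 and 12 each in FAU and RPS15, lie near that library's minimum of 10 over the listed genes. How the listed genes were chosen is not stated, and its part in the changes from WT to KO was not tested.

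FAU had the largest difference of the 10. In WT 12 and 39 fragments were counted, and in KO 177, 39 and 81, which makes 645 and 631 CPM of the listed genes in WT and 1378, 935 and 1361 CPM in KO. All KO libraries were above both WT libraries, which nearly coincide. The log2 fold change was 0.96 ± 0.32 (SE), with an unadjusted p of 0.00652 and an adjusted p of 0.915 by edgeR.

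RPS23 also had all KO libraries above both WT libraries, narrowly: 591 and 1036 CPM in WT and 1051, 1150 and 1227 CPM in KO. RPS13 had all KO libraries below: 1397 and 1602 CPM in WT and 1121, 1366 and 1328 CPM in KO. Over the 785 listed genes, 10.6% had all KO libraries above and 10.4% all below. The log2 fold changes were 0.40 ± 0.31 for RPS23 and -0.26 ± 0.28 for RPS13 (SE; edgeR adjusted p = 0.924 and 0.936).

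RPS20 fragments were at 699 and 793 CPM in WT and at 1402, 431 and 471 CPM in KO. KO replicate 1 was far above and the other KO libraries below both WT libraries, and the log2 fold change of 0.11 had an SE of 0.62. RPS15 was at 645 and 923 CPM in WT and 864, 1821 and 857 CPM in KO, with KO replicate 2 standing apart. RPS3 was at 2526 and 1311 CPM in WT and 1838, 1222 and 2857 CPM in KO, so that each genotype held both high and low libraries.

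The remaining genes overlapped between genotypes. RPS4X ran from 1720 to 2752 CPM in WT and from 2476 to 3143 CPM in KO (log2 fold change 0.25 ± 0.28), RPS21 from 1505 to 2039 and from 1967 to 2372 (0.28 ± 0.28), RPS16 from 1845 to 2096 and from 2063 to 2538 (0.27 ± 0.28), and RPS6 from 1290 to 2379 and from 1653 to 1962 (-0.04 ± 0.30; all SE). WT replicate 1 was the lower WT library in 7 of the 10 genes, with a median difference of -0.31 (log2) from WT replicate 2. Over all 785 listed genes it was the lower in 49.4%, with a median difference of 0.01, and 10% of genes lay below -0.80 and 10% above 1.14.

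Translational efficiency is the fragment level relative to the input level; 1 model over both kinds of library tested whether it changed with genotype. Of 785 genes 0 were called by edgeR (0.0%), with 53 at an unadjusted p under 0.05, and DESeq2 called 2. The change was above 0 in 8 of 10 small-subunit genes, as in 50.6% of all genes, with a median log2 value of 0.12 against 0.01 over all. FAU again came first with 0.89 ± 0.30 (SE; unadjusted p = 0.00876, edgeR adjusted p = 0.575).

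RPS13 gave -0.39 ± 0.24 and RPS6 -0.32 ± 0.28, the only values below 0. The other 7 ran from 0.01 ± 0.66 (RPS20) to 0.29 ± 0.42 (RPS15; all SE), each smaller than its SE or close to it. Within the m6Am class the 7 genes thus spanned -0.39 (RPS13) to 0.89 (FAU), and the 3 genes of the A class 0.01 (RPS20), 0.25 (RPS16) and 0.25 (RPS23). The values of the A class lie inside the range of the m6Am class.

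The authors' deposited table gave FAU a log2 fold change of efficiency of 0.87 with an SE of 0.34 (p = 0.00991, adjusted p = 0.409 in that table). It gave RPS13 -0.45 with an SE of 0.24 (adjusted p = 0.546) and RPS6 -0.32 with an SE of 0.32. DESeq2 as run here on the deposited counts gave the same values, 0.87 for FAU and -0.45 for RPS13. The authors' values and the edgeR values thus rest on the same counts and are not separate measurements. Of 764 genes with an adjusted p in the authors' table, 2 were under 0.05, and 0 of the 10 small-subunit genes were. The authors' median was 0.06 over the 10 genes, with 7 above 0, and -0.01 over all genes; 6.41% of genes in that table changed by at least as much as FAU in either direction.

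**Figure D4:**
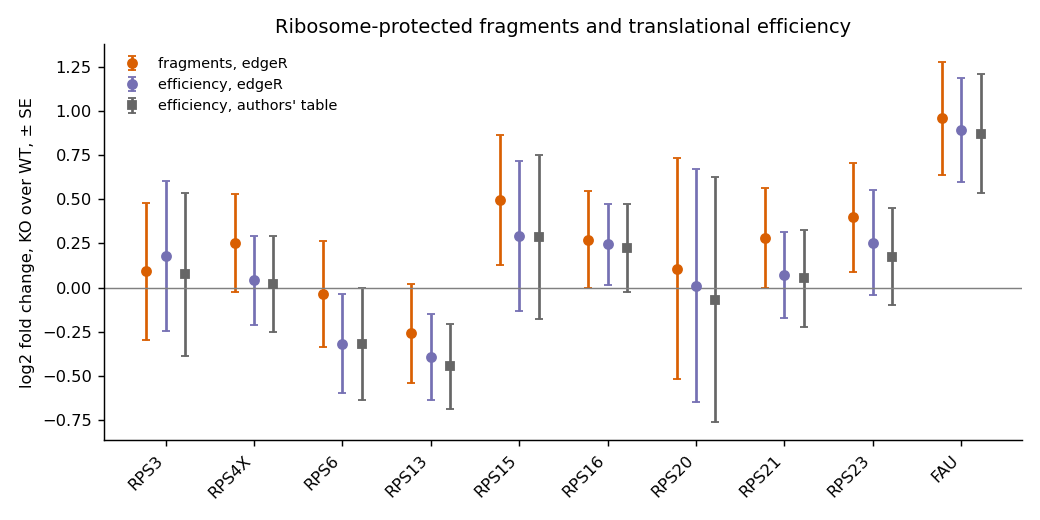
Log2 fold change, KO over WT, with its SE, of ribosome-protected fragments and of translational efficiency (edgeR), and of efficiency in the authors' deposited table, for the 10 small-subunit genes. FAU stands highest on all 3 (0.96, 0.89 and 0.87) and RPS13 lowest (-0.26, -0.39 and -0.45), but all 3 use the same fragment counts. The bars of most other genes cross or touch 0.

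Among large-subunit genes the fragment change was above 0 in 18 of 22 (median 0.20) and the efficiency change in 18 of 22 (median 0.12), with 0 called in either. Of 12 initiation factors 7 were above 0 for fragments and 5 for efficiency (median -0.17), of 7 other TOP mRNAs 5 and 4, of 3 assembly factors 0 and 1, and of 2 regulators 1 and 1. The medians of both subunits, 0.12 and 0.12 for efficiency, were of the same size.

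Occupancy is the log2 of a gene's share of fragments over its share of input among the listed genes. It differed between the small-subunit genes. Each value sets a fragment library against the separate input library of the same genotype and label number. The labels do not say that such libraries belong together. For occupancy, a library means such a pair. RPS13 stood at 1.20 and 1.13 in WT and at 0.59, 0.73 and 0.82 in KO, above 0 in all 5 libraries. RPS21 stood at 1.03 and 1.002 in WT and 1.22, 1.08 and 0.88 in KO. RPS15 was likewise above 0 in all 5 libraries, at 0.28 and 0.61 in WT and 0.51, 1.31 and 0.27 in KO. In WT replicates 1 and 2, 80% and 78.6% of the listed genes lay below RPS13. For RPS21 these shares were 76.8% and 75.4%, and for RPS15 59.2% and 67.3%. Of all 785 listed genes, 396 and 417 were below 0 in these libraries. How many stayed on 1 side of 0 in all 5 libraries was not counted.

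RPS3 and RPS6 were below 0 in all 5 libraries, and so was RPS16, except that with TMM scaling in place of totals it stood at 0.03 in KO replicate 2. RPS3 was at -0.38 and -1.42 in WT and -0.86, -1.63 and -0.42 in KO. FAU stood at -0.71 and -1.11 in WT and at 0.16, -0.58 and -0.09 in KO. In WT replicates 1 and 2, 38.6% and 14.1% of the listed genes lay below RPS3 and 38.3% and 52.6% below RPS6. For RPS16 these shares were 49.4% and 36.9%, and for FAU 27.6% and 20.8%. The median of the 10 genes was -0.02 and 0.34 in the WT libraries, against -0.02 and -0.10 over all listed genes and 0.01 and -0.01 over the large subunit. With TMM scaling the medians of the 10 genes were -0.14 and 0.34 in WT, against -0.13 and -0.10 over all listed genes. No test was made of these levels.

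Each deposited list of m6A positions gives adenosines within the DRACH motif (a 5-base context with A in the middle followed by C) at which miCLIP reads carried the substitution, with the number of reads. Small-subunit genes held 40 of the 43663 positions in the WT list, 46 of 40768 in KO replicate 1 and 45 of 47644 in KO replicate 2, counting positions in a gene's own span only. These lay in 16, 21 and 17 of the 28 genes. The share of all protein-coding genes with a listed position was not counted. Whether these genes are rich or poor in m6A is therefore not known here. With 1 WT library there is no test of genotype. Where the strand is known, 0 positions lay within 50 nt of a gene start in each list. The same count over all genes was not made.

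Of 86 positions found in any list, 12 were in all 3, 18 only in WT, 46 only in KO (11 of them in both KO libraries) and 10 in WT and 1 KO library. A position absent from a list may have had too few substituted reads to be listed. KO has more lists than WT and deeper positions, and the same split over the positions of all genes was not made. The counts are therefore no result about genotype. Positions were found in 21 of the 28 genes, and in no list for RPS3A, RPS10, RPS13, RPS26, RPS27, RPS27A and RPS28. RPS3A, RPS10 and RPS13 thus had a putative m6Am region at the start and no listed m6A position. How many of all genes have no listed position was not counted.

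Reads were deep at these positions, and the listed shares of substituted reads were low. The median position had 160 reads in WT and 213.5 and 251 in KO, against 30, 37 and 42 over all positions of the same lists. The median share of substituted reads was 4.08% in WT and 3.26% and 2.52% in KO, against 10.5%, 10.8% and 10% over all positions. A position is listed by its substituted reads, so a deeper one can be listed at a lower share. The part of depth in this difference was not tested. The context ggAc, the one most favoured by the m6A writer, made up 12.5% of the WT positions and 21.7% and 20% of the KO positions in these genes, against 34.0%, 34.4% and 34.4% over all.

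RPSA, also known as the laminin receptor gene, held the position with the most substituted reads among the 12 found in all lists, chr3:39411963 (ggAct). There 46 of 645 reads were substituted in WT (7.13%, exact 95% interval 5.27 to 9.40%), 40 of 736 in KO replicate 1 (5.43%, 3.91 to 7.33%) and 40 of 899 in KO replicate 2 (4.45%, 3.20 to 6.01%). The 3 intervals overlap. The position lies 5243 nt from the gene start and 579 nt from its end.

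RPS3 at chr11:75404809 (gaAca) had 14 of 191 reads substituted in WT (7.33%), 10 of 212 (4.72%) and 14 of 261 (5.36%) in KO. RPS15A at chr16:18782968 (ggAct) went the other way, with 7 of 165 reads in WT (4.24%) and 18 of 261 (6.90%) and 11 of 233 (4.72%) in KO. RPS4X held 3 of the 12 positions close together, chrX:72272685, 72272697 and 72272704, with 1.59%, 3.28% and 2.17% of reads substituted in WT. RPS24, in which mutations cause Diamond-Blackfan anaemia, held 2 at chr10:78035554 and 78035571, with 2.24% and 1.81% in WT.

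The other recurrent positions were 1 each in RPS14, RPS19, RPS23 and RPS25, at 2.09%, 2.60%, 2.26% and 3.77% in WT. At each of the 12 positions the intervals of the 3 libraries overlapped. These positions were kept because all 3 lists hold them, which leaves out any position gained or lost between genotypes. The overlap and the sums below are therefore no result about genotype. Summed over the 12, 3.48% of 3942 reads were substituted in WT (2.93 to 4.10%), 3.28% of 4356 in KO replicate 1 (2.77 to 3.86%) and 2.97% of 5355 in KO replicate 2 (2.53 to 3.46%). Several reads can stem from 1 molecule, so these intervals cover counting error only.

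**Figure D5:**
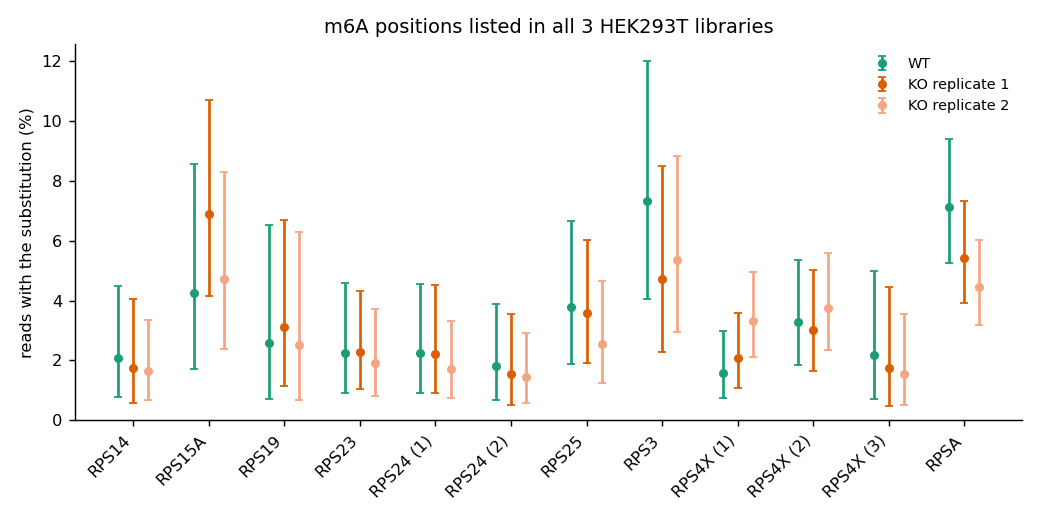
Percent of miCLIP reads with the substitution at the 12 m6A positions of small-subunit genes listed in all 3 HEK293T libraries, with exact 95% intervals; numbers in brackets tell positions of the same gene apart. The intervals of WT, KO replicate 1 and KO replicate 2 overlap at every position, with the highest values in RPS3 and RPSA in WT and RPS15A in KO replicate 1.

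The 11 positions found in both KO libraries and not in WT lay in 10 genes (FAU, RPS2 with 2 positions, RPS3, RPS6, RPS16, RPS18, RPS19, RPS20, RPS21 and RPS25). The deepest, RPS6 at chr9:19378494 (ggAct), had 11 of 666 reads substituted in KO replicate 1 (1.65%, 0.827 to 2.94%) and 20 of 842 in KO replicate 2 (2.38%, 1.46 to 3.64%). RPS18 at chr6:33275841 followed with 10 of 392 (2.55%) and 7 of 482 (1.45%). FAU at chr11:65120797 rested on 3 of 35 and 3 of 66 reads. The WT reads at these positions are not listed, so a lower share in WT and too few WT reads cannot be told apart.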

How the data were processed

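Per the submitters' processing notes, STAR, BWA 0.7.17, bedtools and deepTools and the builds hg38, GRCh38 and mm10 were used; the notes do not say which of them made which table. The input and fragment tables hold raw read counts per Ensembl gene as deposited, and a count of substituted reads stands at each m6A position of the deposited lists. Regions carry 1 score each, as deposited, and the efficiency table also holds a test score. Per the file headers, the authors' efficiency table holds log2 fold changes with errors, a mean normalized signal and p-values, in columns named as DESeq2 names them. The SLAM-seq table holds a KO over WT ratio, as deposited by the authors. No column was left unmatched (0).

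Entries of the authors' class tables were matched by accession to RefSeq (1424 of 1431), which named 1400 genes of the input table. Counts were tested with edgeR 4.0.16 (R 4.3.3; TMM, quasi-likelihood, threshold 0.05 after Benjamini-Hochberg adjustment over all genes tested); filterByExpr was applied to input only. DESeq2 1.42.0, other scalings, no low-count filter, a replicate block and leaving out each library were tried. Scripts were tested on simulated data. CPM of fragments is relative to the counts of the listed genes. Efficiency was the interaction of genotype and kind. Positions and regions were placed by RefSeq coordinates; intervals are exact (Clopper-Pearson, 95%). For genes with several RefSeq starts, the outermost start was used. RefSeq names 656 pseudogenes after all 28 genes, so counts of these genes may share reads with near-identical copies. All 28 genes could be named in the text, and genes outside the list were given by list counts only. The genes and lists were chosen with earlier results of these data known.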

Additional observations from a re-analysis of the deposited data

How the results depend on the processing

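The input result depended on which WT library was used. Leaving out 1 library at a time, 0 to 4 of the 10 genes were called on input (4 without WT replicate 2), their median log2 fold change ran from 0.055 to 0.28, and 2 to 1912 genes were called in all. DESeq2 called 15 genes on input, the test without the low-count filter 152, and the replicate block 3, with 0 small-subunit genes in each. For fragments the median ran from 0.12 to 0.53 with a library left out, and 0 to 3 genes were called; with the replicate block the median was 0.20 and 6 genes were called. For efficiency the median ran from 0.13 to 0.23 with a library left out and 0 to 14 genes were called; DESeq2 gave 0.064 with 2 genes called, and library totals gave 0.057. Library totals moved the median of all genes from 0.01 to -0.06 for efficiency. No small-subunit gene was called for fragments or efficiency under any alternative. FAU kept its sign for fragments (0.80 to 1.10) and efficiency (0.73 to 1.06), and so did RPS13 (-0.34 to -0.15 and -0.47 to -0.29). RPS21 kept its sign on both as well (0.098 to 0.54 and 0.00019 to 0.21), and RPS15, RPS16 and RPS23 kept theirs for fragments only.

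Signs turned for several genes, none of them past the test where they turned, and the cause was not tested. With a library left out, input values ran from -0.0012 to 0.28 (FAU), -0.036 to 0.21 (RPS16) and -0.20 to 0.66 (RPS20), each lowest without WT replicate 1, and from -0.019 (without KO replicate 3) to 0.094 in RPS3. Fragment values ran from -0.73 (without KO replicate 1) to 0.35 in RPS20, -0.35 (without WT replicate 2) to 0.60 in RPS3, -0.022 (without WT replicate 1) to 0.66 in RPS4X and -0.37 to 0.52 (without WT replicate 2) in RPS6. Efficiency values ran from -0.91 (without KO replicate 1) to 0.37 in RPS20, -0.36 to 0.61 in RPS3, -0.064 to 0.35 in RPS4X, -0.12 to 0.56 in RPS15, -0.0077 to 0.42 in RPS16, -0.36 to 0.089 in RPS6 and -0.0020 to 0.84 in RPS23. With the replicate block, input was at -0.013 in RPS16 and -0.038 in RPS3, and RPS3 fragments at -0.28. RPS20 efficiency was at -0.012 with DESeq2 size factors, -0.069 with DESeq2, -0.046 with library totals, -0.055 with the replicate block and -0.16 with the library of the same number as a block (chosen after seeing the data); RPS4X efficiency was at -0.025 with library totals.

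Same-numbered libraries did not deviate together throughout (correlations from -0.003 to 0.21 between genotypes), so the numbers were not taken as pairs in the main tests. Occupancy and an alternative efficiency fit did match input and fragment libraries by number. The deviations of input and fragments of the same number and genotype correlated at only -0.07 to 0.25, so that pairing is not established. A region that had to cover the start left 7 of the 26 genes in place of 12. Over all protein-coding genes the same rule left 7.91% in place of 9.4%, so the size of the contrast depends on the window. At least 5 substituted reads left 19, 27 and 28 m6A positions, and the same cut over all positions was not made. Summing counts with those of pseudogenes was not run, since the sources used here do not name their identifiers. In fragments of WT replicate 1, 3 counts are 169.8 CPM; on input they are at most 0.665 CPM.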
